A study of Mus musculus with 11 samples.

Results

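The genes described here encode 10 heterogeneous nuclear ribonucleoproteins (hnRNPs): Hnrnpa1, Hnrnpa2b1, Hnrnpc, Hnrnpd, Hnrnpf, Hnrnph1, Hnrnpk, Hnrnpl, Hnrnpm and Hnrnpu. They were chosen by gene name, and all 10 were found among the 52661 genes of the expression table and as genes with listed splicing events. The cells were Neuro-2A (N2A), a mouse neuroblastoma line, harvested 48 h after transfection with small interfering RNA pools. Every library, controls included, came from transfected cells of this line. The pools were directed against Fubp1 (2 libraries), Khsrp (2 libraries), Khsrp and Fubp1 together (2 libraries, called the double knockdown), Rbm38 (2 libraries) or no gene (siNT, 3 libraries). The series gives these as biological duplicates and a biological triplicate. All 4 knockdowns were compared with the same siNT libraries, so the comparisons are not independent of each other.

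The hnRNPs coat nascent transcripts and bind short motifs in them, and through these contacts they take part in splice site choice, 3′ end formation, export, translation and decay. They are abundant in nuclei of most cell types, and many of them control the splicing of their own transcripts. The products of Fubp1 and Khsrp belong to one family, which contacts single-stranded nucleic acid through KH domains. The product of Rbm38 uses an RNA recognition motif instead.

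The sequences printed here are coding exons and introns on which the splicing results turn, the 36 nt and 120 nt exons of Hnrnpa2b1, the 57 nt and 147 nt exons of Hnrnpd, the 139 nt exon of Hnrnph1, and short introns of Hnrnpl and Hnrnpm. Among them the 36 nt and 139 nt exons stayed under the size needed for a call, and exons of untranslated regions, such as a called 73 nt exon of Hnrnpa2b1, are described without sequence. They were read from GENCODE transcripts of the build GRCm38, to which the events were matched by their length and that of the neighbouring introns or exons. Capitals mark the exon or intron, and the 15 lower-case bases on each side belong to the neighbouring exons of the transcript. Each is written 5′ to 3′ on the strand of the gene.
Hnrnpa2b1 36 nt exon, chr6:51467391-51467426, minus strand: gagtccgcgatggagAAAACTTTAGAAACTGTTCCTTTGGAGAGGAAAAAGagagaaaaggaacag
Hnrnpa2b1 120 nt exon, chr6:51464428-51464547, minus strand: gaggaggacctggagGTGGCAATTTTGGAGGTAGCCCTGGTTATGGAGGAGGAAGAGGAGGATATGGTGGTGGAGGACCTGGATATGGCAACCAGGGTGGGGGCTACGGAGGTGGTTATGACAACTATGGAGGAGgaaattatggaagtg
Hnrnpd 57 nt exon, chr5:99976534-99976590, minus strand: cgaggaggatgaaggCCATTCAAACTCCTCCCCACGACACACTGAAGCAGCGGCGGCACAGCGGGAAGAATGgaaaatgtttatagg
Hnrnpd 147 nt exon, chr5:99963731-99963877, minus strand: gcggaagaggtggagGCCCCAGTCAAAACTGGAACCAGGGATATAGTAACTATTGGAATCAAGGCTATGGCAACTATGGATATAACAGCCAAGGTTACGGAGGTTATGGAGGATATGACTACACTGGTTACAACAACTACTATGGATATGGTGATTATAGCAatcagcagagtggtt
Hnrnph1 139 nt exon, chr11:50381459-50381597, plus strand: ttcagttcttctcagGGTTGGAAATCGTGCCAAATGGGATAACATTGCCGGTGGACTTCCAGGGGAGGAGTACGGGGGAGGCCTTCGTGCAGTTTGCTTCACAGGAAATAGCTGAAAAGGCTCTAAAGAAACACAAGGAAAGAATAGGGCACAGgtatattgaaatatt
Hnrnpl 111 nt intron, chr7:28818533-28818643, plus strand: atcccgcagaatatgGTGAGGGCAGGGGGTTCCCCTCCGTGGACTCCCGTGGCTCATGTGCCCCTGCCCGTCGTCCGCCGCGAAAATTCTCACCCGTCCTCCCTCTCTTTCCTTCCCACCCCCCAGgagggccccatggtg
Hnrnpm 117 nt intron, chr17:33666530-33666646, minus strand: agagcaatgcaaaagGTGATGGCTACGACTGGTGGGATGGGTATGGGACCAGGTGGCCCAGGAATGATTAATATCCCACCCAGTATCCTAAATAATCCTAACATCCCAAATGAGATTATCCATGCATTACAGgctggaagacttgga
The 36, 120, 57 and 147 nt exons hold 12, 40, 19 and 49 codons, so that including or skipping them keeps the reading frame, and all 4 are coding in annotated transcripts. The 139 nt exon of Hnrnph1 is coding and its length is not a multiple of 3. The Hnrnpl intron was 44.1% C and 9.9% A, and the 120 nt exon of Hnrnpa2b1 was 44.2% G.

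The authors' deposited table gives log2 fold changes against siNT of -2.60 for Fubp1, -2.77 for Khsrp and -3.42 for Rbm38 after knockdown of each, and of -3.04 for Fubp1 and -2.94 for Khsrp in the double knockdown. Khsrp was also lower after Rbm38 knockdown, by -0.70 (FDR 0.0243), and Fubp1 had -0.39 there (FDR 0.0796), in the authors' deposited table. None of the other targets was called there in a knockdown not directed at it. Of 12 sympathoadrenal markers 11 were above 1 RPKM (reads scaled to transcript length and library depth) in siNT in the authors' deposited table, and of 13 markers of glia, microglia, fibroblasts and endothelium 3 were, while 8 were below 0.1 RPKM. Those 13 summed to between 5.74 RPKM and 8.75 RPKM in the 5 groups of the authors' deposited table, while the sympathoadrenal markers summed to 864.56 RPKM in siNT and 479.79 RPKM in the double knockdown, with 789.32 to 889.85 RPKM in the other knockdowns. Single markers among the 13 moved both ways in the authors' deposited table. Gfap went from 0.33 RPKM in siNT to 3.3 after Khsrp knockdown (FDR 0.035), and Mbp from 2.16 to 0.69 in the double knockdown (FDR 6.06e-10). Of 6 neuronal markers 4 were above 1 RPKM, and they summed to 810.29 RPKM in siNT and 602.67 to 1028.39 RPKM in the knockdowns, in the authors' deposited table. The libraries fell into sets by their title numbers, with 4 libraries (both of the Fubp1 knockdown, siNT A and siNT B) at 1 to 4, and siNT C and the other 6 libraries at 8 to 27. Differences with a term for these sets are given beside the main results, and the authors' expression values could not be adjusted for them. The median number of reads behind a tested hnRNP event lay between 737 and 2151 per library, against 99 to 221 for all tested events.

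After the knockdowns the hnRNP transcripts were lower or not called different. In the authors' deposited table, 6 of the 10 genes fell at an FDR under 0.05 after Fubp1 knockdown (10.5% of 23378 genes tested fell), 1 after Khsrp knockdown (4.34%), 6 in the double knockdown (13.7%) and 4 after Rbm38 knockdown (7.02%). None of the 10 rose, against 12%, 3.82%, 13.2% and 7.96% of the genes in the authors' deposited table. Their median log2 fold changes in the authors' deposited table were -0.38, -0.28, -0.57 and -0.36 in that order, against 0.00, 0.00, 0.00 and 0.02 over all genes tested. The hnRNP genes are highly expressed, and a background of 1321 genes with at least 100 RPKM in siNT was added after the values were seen. Of those genes 32.8%, 5.53%, 23.9% and 19.5% fell and 1.89%, 3.18%, 7.49% and 2.5% rose in the authors' deposited table, with median log2 fold changes of -0.39, 0.08, -0.06 and -0.11. The hnRNP median thus lay at the median of the highly expressed genes after Fubp1 knockdown, and below it in the other 3 comparisons. The sum of the sympathoadrenal markers was lower in the double knockdown as well, and its part in these values was not tested. In bulk libraries, fewer cells of a type and less RNA per cell cannot be told apart.

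**Figure D1:**
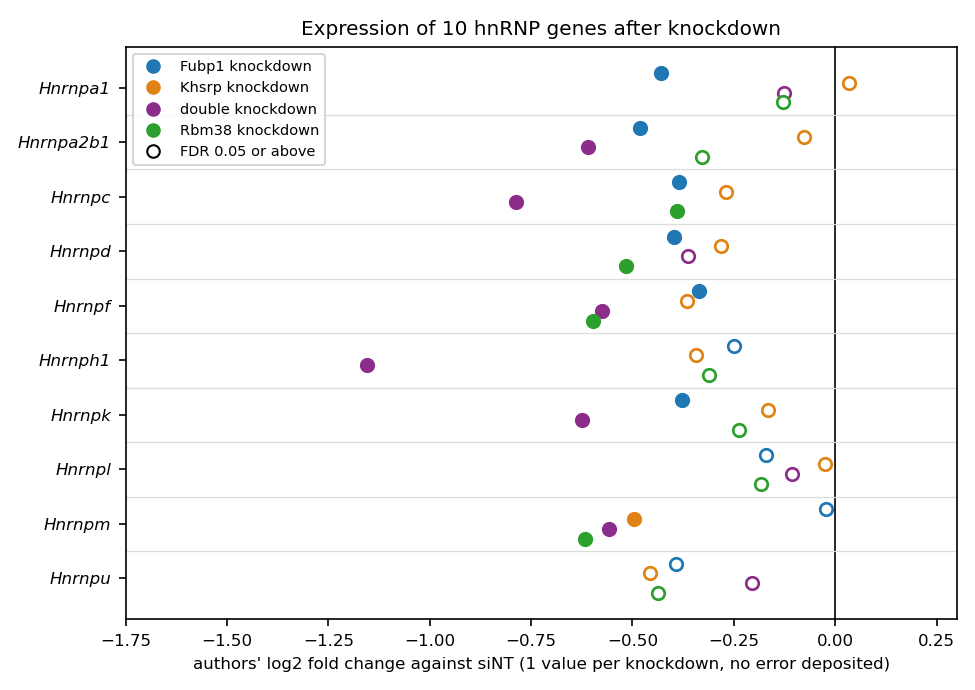
Log2 fold change against siNT of the 10 hnRNP genes (rows) in the 4 knockdowns (colours), as the authors deposited them, on the x axis; filled points have an FDR under 0.05. Hnrnph1 in the double knockdown lies farthest to the left, at -1.16, and Hnrnpl and Hnrnpu have no filled point.

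Hnrnph1 and its paralog Hnrnpf encode proteins that bind runs of G. Hnrnph1 had 621.94 RPKM in siNT, 534.81 after Fubp1 knockdown, 475.41 after Khsrp knockdown, 488.45 after Rbm38 knockdown and 282.51 in the double knockdown in the authors' deposited table. Of these only the double knockdown was called, with a log2 fold change of -1.16 and an FDR of 2.61e-14 by the authors' deposited table, the strongest fall of the 10 genes in any knockdown. Hnrnpf fell in 3 of the 4 comparisons. Its authors' deposited table values were 692.09 RPKM in siNT, 581.6 after Fubp1 knockdown (FDR 0.0435), 471.18 after Rbm38 knockdown (FDR 1.10e-04) and 444.53 in the double knockdown (FDR 8.97e-05), and 531.66 after Khsrp knockdown (FDR 0.0535).

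Hnrnpa1, Hnrnpa2b1 and Hnrnpc encode core proteins of the ribonucleoprotein particles that package pre-mRNA. Hnrnpa1 was the most abundant of the 10 in siNT, with 2225.26 RPKM in the authors' deposited table, followed by Hnrnpa2b1 with 1538.69 RPKM. Hnrnpa1 fell only after Fubp1 knockdown, to 1788.7 RPKM (log2 fold change -0.43, FDR 0.0286), in the authors' deposited table. Hnrnpa2b1 fell to 1195.19 RPKM after Fubp1 knockdown (FDR 0.0451) and to 978.26 RPKM in the double knockdown (log2 fold change -0.61, FDR 0.0062) in the authors' deposited table. Hnrnpc, whose product binds runs of U, had 391.85 RPKM in siNT and fell to 234.22 RPKM when Khsrp and Fubp1 were both depleted, by 0.79 on the log2 scale with an FDR of 6.98e-08 in the authors' deposited table. It also fell after Fubp1 and Rbm38 knockdown, by 0.39 on the log2 scale in both (FDR 0.0193 and 0.0259 in the authors' deposited table).

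Hnrnpd encodes AUF1, a protein that binds AU-rich elements and takes part in messenger RNA decay. It had 361.9 RPKM in siNT and fell to 274.73 after Fubp1 knockdown (FDR 0.0331) and to 244.48 after Rbm38 knockdown (FDR 0.0056) in the authors' deposited table, and its double knockdown value of 258.9 RPKM had an FDR of 0.0504. Hnrnpk, which binds runs of C through KH domains, fell from 780.56 RPKM to 636.75 after Fubp1 knockdown (FDR 0.0096) and to 496.25 in the double knockdown (FDR 2.81e-06) in the authors' deposited table. Hnrnpm had the lowest level of the 10 in siNT, 181.57 RPKM in the authors' deposited table, and was the only member called after Khsrp knockdown. It fell to 127.43 RPKM there (FDR 0.0312), to 121.03 in the double knockdown (FDR 0.0034) and to 114.1 after Rbm38 knockdown (FDR 0.0022), and stood at 184.36 RPKM after Fubp1 knockdown (log2 fold change -0.02, FDR 1) in the authors' deposited table. Hnrnpl, which binds CA-rich RNA, and Hnrnpu, a scaffold attachment factor of the nuclear matrix, were called in no knockdown, with log2 fold changes from -0.18 to -0.03 for Hnrnpl and from -0.46 to -0.20 for Hnrnpu in the authors' deposited table, although Hnrnpu was called by the junction reads described next. No pair of knockdowns was tested against each other, so a call in only some of them does not show that they differ.

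The spread between libraries was seen in the reads over splice junctions, summed per gene and scaled by the trimmed mean of M-values. These levels are given in units of 1000 reads, and they are not divided by length, so they are compared within a gene only. Overlapping events share reads, so the sums are not counts of separate reads. Exon entries were listed for 6 of the 10 genes, and by limma with Benjamini-Hochberg adjustment 2 of these 6 fell after Fubp1 knockdown (16.7% of 9467 genes fell), 2 after Khsrp knockdown (5.6%), 5 in the double knockdown (21.4%) and 3 after Rbm38 knockdown (11%), and none rose. With the reads of alternative splice site groups added, a choice made after the data were seen, all 10 genes had a value, and 5 fell after Fubp1 knockdown (15.7% of 9822 genes), 4 after Khsrp knockdown (5.19%), 8 in the double knockdown (20.8%) and 4 after Rbm38 knockdown (10.2%). These limma counts became 6 (19.1% of all genes), 1 (2.9%), 6 (20.9%) and 5 (11.3%) with the library set term. The 1 Khsrp call with the term was Hnrnpa2b1, which was not called without it. The 4 genes called without it, Hnrnpc, Hnrnph1, Hnrnpm and Hnrnpu, all lost their Khsrp call. For the 6 genes the Fubp1 count was 0 without Fubp1 A or without Fubp1 B, 1 without either Khsrp library and 4 without siNT C. The Khsrp count was 0 without siNT A, siNT B, Khsrp A or Khsrp B, and 1 without a Fubp1 or a double knockdown library. The double knockdown count of 5 was 3 without a Fubp1 or a double knockdown library.

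For Hnrnph1 the junction-read level was 49.56, 53.19 and 49.4 in the siNT libraries A, B and C, and 22.91 and 24.32 in the double knockdown. Both double knockdown libraries were under those of the single knockdowns, which lay at 40.05 to 45.25. The double knockdown difference was -1.10 on the log2 scale (SE 0.08, limma adjusted p = 1.36e-05) and -1.07 with the library set term. The Khsrp difference was -0.30 (limma adjusted p = 0.048), and -0.26 with the set term, where it was not called. Hnrnpc, with splice site groups, had a level of 6.65, 6.47 and 6.02 in siNT, 2.32 and 2.81 in the double knockdown and 4.14 to 4.66 in the 6 other libraries. Its levels thus stood in 3 bands that did not overlap, with a double knockdown difference of -1.32 on the log2 scale (SE 0.11, limma adjusted p = 3.18e-05) and of -1.24 with the library set term. Hnrnpa1, with splice site groups, differed by -0.41 in the double knockdown (limma adjusted p = 0.0336). With the set term that difference was -0.34 and was not called. The authors' deposited table gives Hnrnpa1 a log2 fold change of -0.13 in the double knockdown, with an FDR of 0.645.

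Hnrnpm fell in every comparison but that of Fubp1. Its junction-read level was 42.41, 43.55 and 35.7 in siNT, 38.55 and 39.61 after Fubp1 knockdown, 29.5 and 28.95 after Khsrp knockdown, 28.36 and 27.75 with both depleted and 27.12 and 26.61 after Rbm38 knockdown. The Fubp1 libraries lay within the siNT range, and the 6 other knockdown libraries lay under it. The limma differences were -0.05 (adjusted p = 0.722), -0.47 (0.0166), -0.53 (0.00187) and -0.59 (0.00314) on the log2 scale in that order. With the library set term they were -0.14, -0.29, -0.35 and -0.41, the last 3 still called. Hnrnpd had its lowest mean level after Rbm38 knockdown, with 33.77 and 28.5 against 44.2 to 47.18 in siNT (log2 difference -0.55, limma adjusted p = 0.00316, and -0.60 with the set term).

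Hnrnpu had a junction-read level of 133, 137 and 128 in siNT, 106.9 and 108.4 after Fubp1 knockdown, and 105.1 and 107 after Khsrp knockdown. With both genes depleted it was 103.7 and 112.7, and with Rbm38 depleted 98.9 and 81.41. All 8 knockdown libraries thus lay under all 3 siNT libraries. The limma differences were -0.30 (adjusted p = 0.0344), -0.32 (0.0576), -0.30 (0.0322) and -0.56 (0.00384) on the log2 scale for Fubp1, Khsrp, double and Rbm38 knockdown. With the library set term the adjusted p were 0.0217, 0.189, 0.122 and 0.014, and the Fubp1 call was also lost without siNT A, siNT B or any Fubp1 or Khsrp library (limma adjusted p from 0.0601 to 0.175). The double knockdown call was lost without siNT A, siNT B or any Fubp1, Khsrp or double knockdown library (limma adjusted p from 0.0502 to 0.185).

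Hnrnpa2b1 was the gene whose level moved most with the library set term, which in set 2 rests on siNT C alone. Its junction-read level was 135.8 and 138.3 in siNT A and B and 216.9 in siNT C. The libraries of the knockdowns lay at 109.9 to 158.6, and those of the Khsrp knockdown (153.2 and 158.6) lay above siNT A and B and under siNT C. The double knockdown difference was -0.54 on the log2 scale (limma adjusted p = 0.0318) and -0.98 with the library set term (adjusted p = 5.22e-05). For Rbm38 knockdown it went from -0.27 (adjusted p = 0.289) to -0.71 (adjusted p = 0.000684) by the same limma fits. The groups overlapped for Hnrnpl, at 27.05 to 31.29 in siNT and 23.31 to 31.88 in the knockdowns, and for Hnrnpf, at 1.24 to 1.77 in siNT and 0.99 to 1.85 in the knockdowns.

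**Figure D2:**
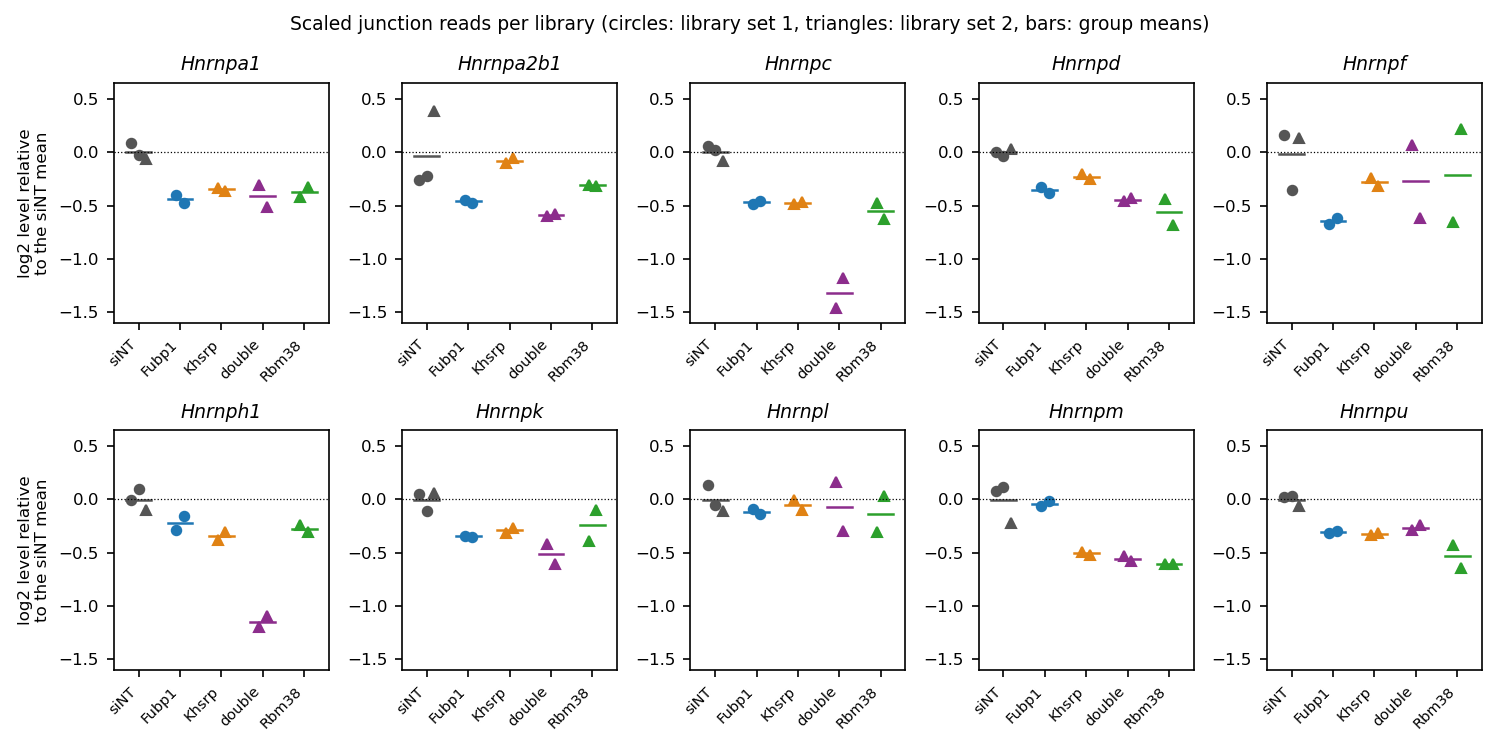
Scaled junction reads per library, as the log2 ratio to the siNT mean (y axis), for the 10 hnRNP genes by group (x axis), from exon events and splice site groups; bars are means of the log2 ratios. Hnrnpc and Hnrnph1 are lowest in the double knockdown, and siNT C stands above siNT A and B for Hnrnpa2b1.

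Splicing of the hnRNP genes was measured as the deposited percent spliced in (PSI). For an exon this is the percentage of transcripts that hold it, for an intron the percentage that retain it, and for a splice site the percentage that use it. Of 265 listed events 207 remained once the first site of each alternative splice site group was left out. Of these 207, 186 reached 10 reads in each of the 11 libraries. Of these, 61 had a mean PSI above 99 and 72 below 1 and were not tested, which left 53 of the 60127 tested events of all genes. They comprised 16 exons, 22 introns and 15 alternative splice sites. Sites of the same group share reads, so the 53 events are not all separate splice choices. For example, the 9 nt and 39 nt sites of Hnrnph1 mirror each other, at -4.58 and 4.56 points after Fubp1 knockdown. A call needed a PSI difference of at least 10 points and, in limma over all tested events, an adjusted p (Benjamini-Hochberg) under 0.05.

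In the double knockdown 6 of the 53 events were called, 2 higher and 4 lower (7.95% of all tested events were called), in Hnrnpa2b1, Hnrnpd, Hnrnph1, Hnrnpl and Hnrnpm. After Fubp1 knockdown 1 event was called (1.43%), in Hnrnpa2b1. After Rbm38 knockdown 1 was called (0.374%), in Hnrnpm. None was called by limma after Khsrp knockdown (0.183%), where 16 of 53 had an unadjusted p under 0.05 (11.5% of all tested events had). No event was called for the difference between the double knockdown and the sum of the Fubp1 and Khsrp effects (0.462%), where 6 of 53 had an unadjusted p under 0.05 (11% of all). An unadjusted p under 0.05 was found for 15 hnRNP events after Fubp1 knockdown (15.6% of all), 16 in the double knockdown (26.2%) and 12 after Rbm38 knockdown (12.1%). A limma fit without weights called 0 hnRNP events after Fubp1 knockdown (0.0565% of all), 3 in the double knockdown (6.37%) and 0 in the other 3 comparisons (0% of all). With the library set term 5 of the 6 double knockdown calls remained (4.54%), none remained after Fubp1 (1.37%) or Rbm38 knockdown (0.0432%), none was made after Khsrp knockdown (0.0399%), and 2 were made for the departure from the summed effects (0.501%), the 73 nt exon of Hnrnpa2b1 and the 111 nt intron of Hnrnpl.

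Without the requirement of 10 points, the adjusted p in limma was under 0.05 for 7, 1, 12 and 1 hnRNP events after Fubp1, Khsrp, double and Rbm38 knockdown, against 2.69%, 0.231%, 14.5% and 0.496% of all tested events, and for 1 event in the departure from the summed effects (0.497%). Deep events are called more often, and 36 of the 53 had a mean of at least 1000 reads. Among all 3250 events of that depth, a background added after the values were seen, the shares under an adjusted p of 0.05 were 11.2%, 1.51%, 35.3% and 2.62%, and with 10 points as well they were 2.55%, 0.738%, 11.7% and 1.42%. The 12 and 6 hnRNP events of the double knockdown are 22.6% and 11.3% of the 53. Those 53 include events under that depth, and the shares among the 36 deep ones were not counted. The median absolute PSI difference of the hnRNP events in the double knockdown was 1.54 points, and that of all tested events was 2.01 points. The authors' deposited table of events lists 38 of the 53, all but the alternative splice sites. It marks 8 of these as changed after Fubp1 knockdown (5.18% of 47905 tested events listed there), 5 after Khsrp knockdown (2.34%), 11 in the double knockdown (14.9%) and 6 after Rbm38 knockdown (2.59%).

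**Figure D3:**
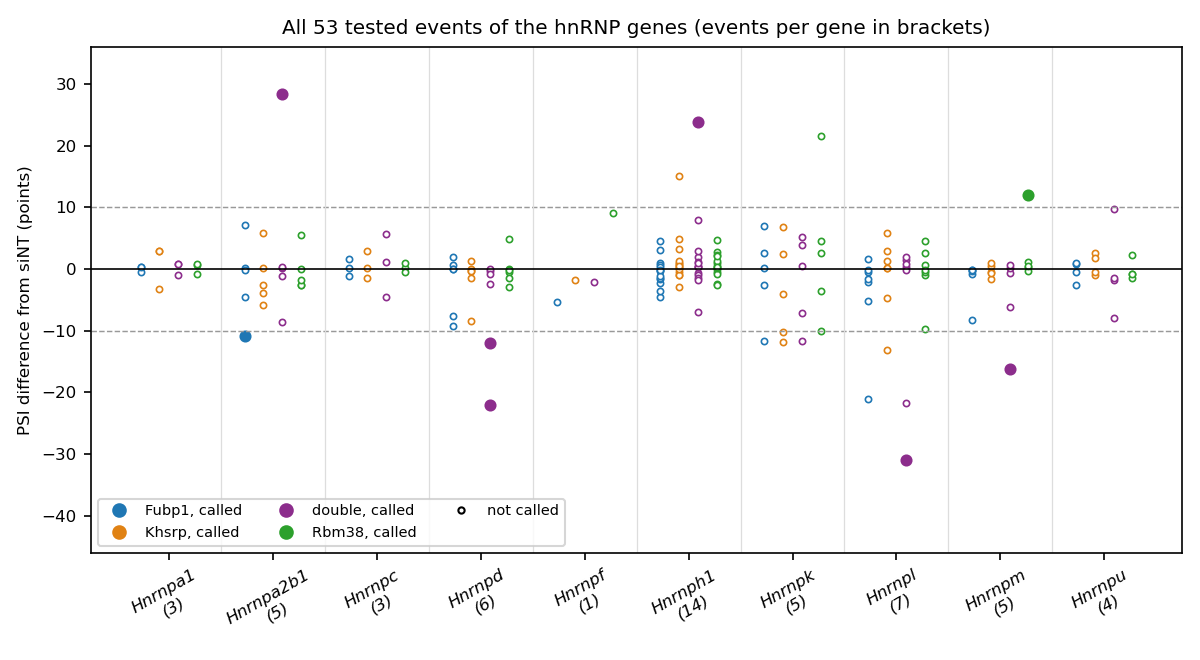
PSI difference from siNT (y axis, points) of all 53 tested hnRNP events by gene (x axis) and knockdown (colours); filled points were called and dashed lines stand at 10 points either way. Called events lie between -30.88 and 28.33 points, and most open points lie near 0.

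Hnrnpa2b1 makes the proteins A2 and B1, which differ by the residues encoded in the 36 nt exon, exon 2 of 12 of a coding transcript. The exon is included in B1 only. Its PSI was 14.16, 13.24 and 12.38 in the siNT libraries A, B and C, 8.82 and 8.7 after Fubp1 knockdown, and 7.67 and 7.27 after Khsrp knockdown. With both genes depleted it was 4.51 and 4.7, and with Rbm38 depleted 11.12 and 10.19. No knockdown library reached the siNT range, and the double knockdown libraries were the lowest. The log2 odds of inclusion differed from siNT by -0.67 (SE 0.09, limma adjusted p = 0.000579), -0.91 (SE 0.09, adjusted p = 0.000521), -1.67 (SE 0.14, adjusted p = 1.07e-06) and -0.36 (SE 0.08, adjusted p = 0.0735) in that order. On this scale the double knockdown differed from the sum of both single effects by -0.09 (SE 0.17, limma adjusted p = 0.897). The exon rests on 5540 to 17575 reads per library. Its PSI differences of -4.50, -5.79 and -8.65 points are under the 10 points of a call, and it was singled out after its values were seen. With the library set term they were -4.94, -4.91 and -7.77 points, with limma adjusted p of 0.000122, 0.00366 and 4.97e-06.

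The 120 nt exon, exon 8 of 12, encodes part of the glycine-rich region of Hnrnpa2b1. Its PSI was 75.06, 77.78 and 85.38 in the siNT libraries A, B and C and 69.28 and 67.77 after Fubp1 knockdown. Khsrp and Rbm38 knockdown libraries lay between 84.13 and 85.8, and those of the double knockdown at 78.33 and 78.24. The Fubp1 libraries were thus the lowest of all 11, and siNT C stood with the Khsrp and Rbm38 libraries of its set. The Fubp1 difference was -10.88 points (limma adjusted p = 0.0175), and it was -7.89 points with the library set term (adjusted p = 0.000381) or without siNT C (adjusted p = 0.000369), under the 10 points of a call. It also missed the call without Fubp1 A (limma adjusted p = 0.108) or Fubp1 B (0.131). In the double knockdown the limma difference was -1.12 points, and with the set term -7.10 points (adjusted p = 0.0005).

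The 73 nt exon of Hnrnpa2b1 lies in the 3′ untranslated region and was matched through a longer annotated form of 136 nt. Of the 3 annotated transcripts with that form, 2 are classed as nonsense-mediated decay. Its PSI was 43.39, 47.28 and 32.43 in siNT, 48.34 and 48.07 after Fubp1 knockdown, and 36.1 and 38.07 after Khsrp knockdown. The double knockdown libraries had 68.16 and 70.57, and the Rbm38 libraries 41.6 and 37.06. Only the double knockdown libraries stood apart from siNT by more than its spread, by 28.33 points (log2 odds difference 1.85, SE 0.19, limma adjusted p = 9.11e-06) and by 36.93 points with the library set term. The double knockdown exceeded the sum of both single effects by 25.11 points, with a limma adjusted p of 0.0784, which was 0.0013 with the set term. In the double knockdown the lower B1 exon and the higher 3′ untranslated exon thus stood beside a lower Hnrnpa2b1 level in the authors' deposited table.

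In Hnrnpd the 57 nt and 147 nt exons set which isoforms of AUF1 are made, and both were less included in the double knockdown. The 57 nt exon, exon 2 of 8, had a PSI of 57.4, 56.6 and 52.59 in siNT, 49.05 and 46.87 after Fubp1 knockdown, and 48.65 and 45.48 after Khsrp knockdown. With both genes depleted it was 36.12 and 30.78, and with Rbm38 depleted 53.05 and 52.21. Both single knockdowns of the KH domain genes lay between siNT and the double knockdown without overlap, and 1 of the 2 Rbm38 libraries lay within the siNT range. The difference was -22.08 points in the double knockdown (limma adjusted p = 2.06e-06), -7.57 points after Fubp1 knockdown (adjusted p = 0.0216) and -8.47 points after Khsrp knockdown (adjusted p = 0.0699). With the library set term these were -19.14, -9.04 and -5.53 points, with limma adjusted p of 5.76e-05, 0.00373 and 0.667. The departure from the sum of the single effects was -6.04 points (limma adjusted p = 0.427).

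The 147 nt exon was read in the same libraries with another order of the groups. Its PSI was 54.57, 53.76 and 57.28 in siNT, 45.73 and 46.29 after Fubp1 knockdown, and 57.31 and 55.84 after Khsrp knockdown. The double knockdown libraries had 42.94 and 43.42, and the Rbm38 libraries 60.04 and 60.12. The Fubp1 and double knockdown libraries lay under siNT, the Khsrp libraries at its upper end, and the Rbm38 libraries above it. The double knockdown difference was -12.02 points (limma adjusted p = 4.43e-05) and the Fubp1 difference -9.19 points (adjusted p = 0.00161), and with the library set term they were -14.10 and -8.15 points. The Khsrp and Rbm38 differences were 1.37 and 4.88 points, with limma adjusted p of 0.646 and 0.129. The fit without weights gave the double knockdown an adjusted p of 0.11. Whether the exons differ from each other was not tested.

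In Hnrnph1 the 139 nt coding exon, exon 5 of 14, was nearly always included, and less so in the double knockdown. Its PSI was 96.1, 95.71 and 95.53 in siNT, 93.8 and 94.64 after Fubp1 knockdown, and 95.69 and 96.14 after Khsrp knockdown. With both genes depleted it was 88.22 and 89.56, and with Rbm38 depleted 95.99 and 96.44. Both double knockdown libraries were under all others, and both Fubp1 libraries were under siNT. The differences of -6.89 points in the double knockdown (limma adjusted p = 1.89e-06) and of -1.56 points after Fubp1 knockdown (adjusted p = 0.0226) were under the 10 points of a call. The 50 nt exon that holds the end of the reading frame, exon 13 of 14, had a PSI of 83.87, 81.2 and 84.62 in siNT, 80.46 and 78.96 after Fubp1 knockdown, and 88.16 and 88.05 after Khsrp knockdown. It was 90.3 and 92.08 in the double knockdown and 86.88 and 88.98 after Rbm38 knockdown. The libraries of these last 3 groups thus lay above siNT and the Fubp1 libraries under it. The double knockdown difference was 7.96 points (limma adjusted p = 0.00147) and 6.57 points with the library set term (adjusted p = 0.0166), under the 10 points of a call, and the adjusted p of the other knockdowns lay between 0.0619 and 0.201. Both were singled out after their values were seen.

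The event of Hnrnph1 that was called lies in the 5′ untranslated region, a 127 nt exon with only 25 to 119 reads per library. Its PSI was 34.43, 36 and 56.66 in siNT, 65.71 and 66.68 in the double knockdown and 65.62 and 49.37 after Khsrp knockdown. SiNT C lay nearer to the double knockdown than to siNT A and B. The difference of 23.83 points (limma adjusted p = 0.0274) was 9.53 points with the library set term (adjusted p = 0.605). It was not called without siNT A, siNT B or either double knockdown library (limma adjusted p from 0.0662 to 0.316). A 5′ splice site of Hnrnph1 that lengthens an exon by 39 nt had, after Fubp1 knockdown, a PSI of 13.62 and 16.62 against 9.76, 10.86 and 11.05 in siNT, a limma difference of 4.56 points (adjusted p = 0.0317).

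Short introns of Hnrnpl and Hnrnpm were less retained in the double knockdown. Both lie between coding exons, and 1 annotated protein-coding transcript of Hnrnpl and 2 of Hnrnpm hold them. The 111 nt intron of Hnrnpl had a PSI of 43.75, 40.55 and 27.92 in siNT, 34.37 and 37.11 after Fubp1 knockdown, and 22.81 and 25.69 after Khsrp knockdown. The double knockdown libraries had 6.51 and 6.55, and the Rbm38 libraries 27.73 and 27.57. The double knockdown libraries were far under all others, and siNT C again stood with the other libraries of its set. The difference was -30.88 points (log2 odds difference -3.18, SE 0.46, limma adjusted p = 0.000204) and -21.39 points with the library set term (adjusted p = 0.000231). Reads over the exon-intron junctions were uneven in the libraries of set 1, with 559 at the first and 141 at the second junction in siNT A (balance p = 2.1e-07 as the authors deposited it), 212 and 111 in siNT C (0.818) and 33 and 27 in double knockdown A (0.927). What this unevenness adds to the PSI of siNT A and B was not tested. Double knockdown B had 33 reads at the first and 12 at the second junction, and siNT C also had fewer at the second. The double knockdown reads are too few to show that the junctions were even. Within set 2 the PSI went from 27.92 in siNT C to 6.51 and 6.55 in the double knockdown. What unevenness adds to these values was not tested either.

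The 117 nt intron of Hnrnpm was lower in the double knockdown and higher after Rbm38 knockdown. Its PSI was 47.23, 44.9 and 54.72 in siNT, 40.13 and 41.12 after Fubp1 knockdown, and 47.09 and 49.56 after Khsrp knockdown. With both genes depleted it was 32.47 and 33.16, and with Rbm38 depleted 60.73 and 61.18. The double knockdown libraries lay under all siNT libraries and the Rbm38 libraries above all of them. The double knockdown difference was -16.14 points (limma adjusted p = 0.00128) and -21.91 points with the library set term (adjusted p = 3.43e-05), and without weights its adjusted p was 0.0514. The Rbm38 difference was 12.01 points (limma adjusted p = 0.0396). With the set term it was 6.24 points (adjusted p = 0.456), with 1 read added in place of 0.5 the adjusted p was 0.0518, and leaving out any library except siNT C also ended the call (limma adjusted p from 0.0638 to 0.215). Hnrnpm encodes a splicing factor that binds GU-rich sequence, and its 54 nt coding exon, exon 14 of 17, had a PSI of 98.02, 98.52 and 95.75 in siNT and 92.29 and 90.33 in the double knockdown. The Khsrp libraries, at 96.21 and 95.47, stood near siNT C, and the 4 Fubp1 and Rbm38 libraries at 96.8 to 97.45. The double knockdown difference of -6.12 points (limma adjusted p = 0.000656), or -4.44 points with the library set term (adjusted p = 0.0233), is under the 10 points of a call.

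**Figure D4:**
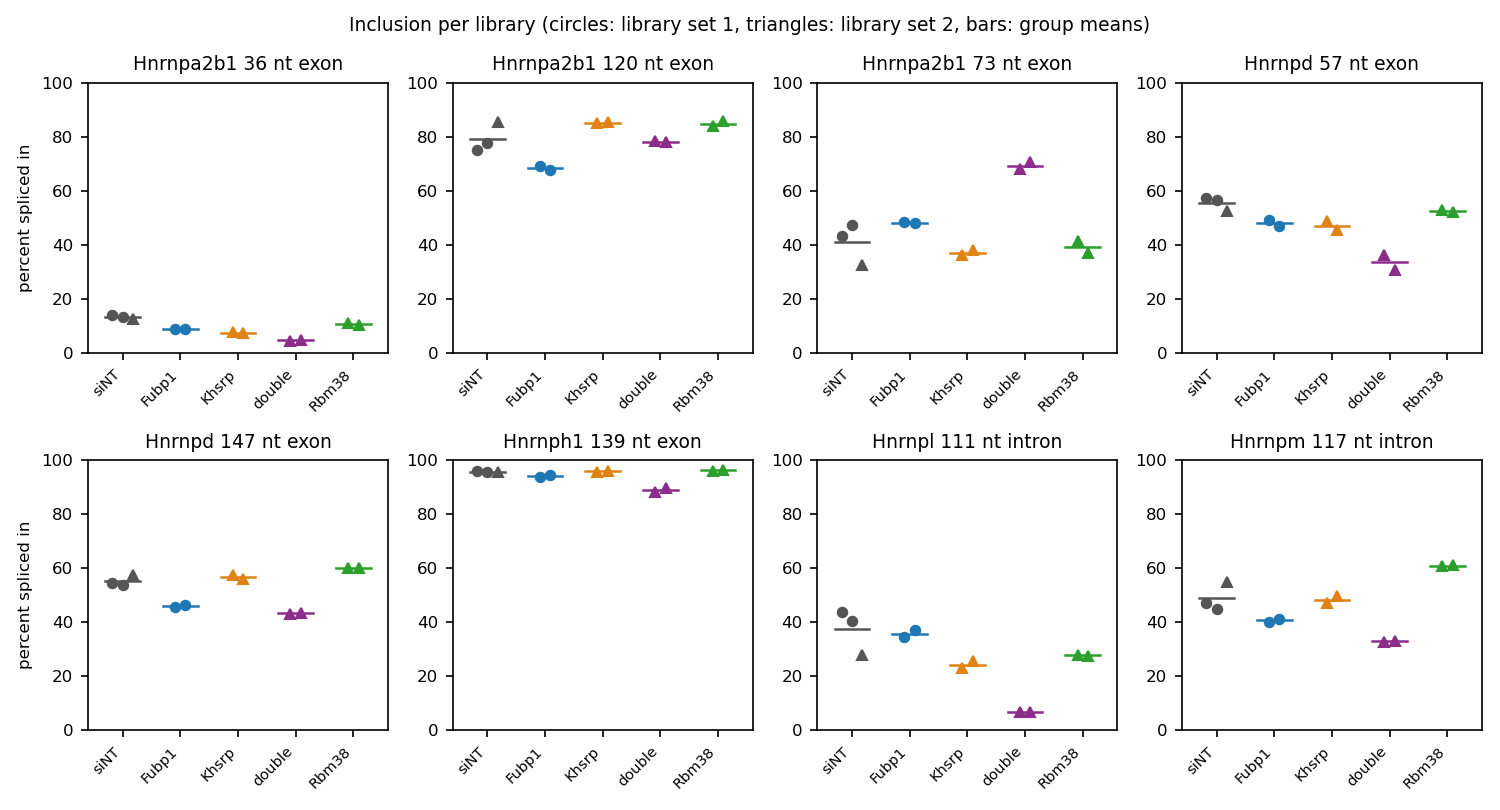
PSI (y axis, percent) per library by group (x axis) for 6 exons and 2 introns of the hnRNP genes; bars are group means. The double knockdown is lowest for the 36, 57, 147 and 139 nt exons and both introns, and highest for the 73 nt exon.

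The other members had no called event. For Hnrnpa1, Hnrnpc, Hnrnpf and Hnrnpk no exon entry is listed, and 3, 3, 1 and 5 events were tested, all of them alternative splice sites except 1 intron of Hnrnpc. The single tested 5′ splice site of Hnrnpf, at 39 nt, had a PSI of 30.16, 30.42 and 27.18 in siNT and 39.99 and 36.63 after Rbm38 knockdown, without overlap, a difference of 9.06 points with a limma adjusted p of 0.128. A 3′ splice site of Hnrnpc, at 24 nt, had a PSI of 66.06, 64.72 and 66.99 in siNT and 72.92 and 70.42 in the double knockdown (difference 5.75 points, limma adjusted p = 0.171). The events of Hnrnpk rest on as few as 11 reads in a library, and 1 of them differed by 21.55 points after Rbm38 knockdown with libraries at 52.94 and 25.0 (limma adjusted p = 0.502). In Hnrnpu 4 events were tested, with double knockdown differences from -7.92 to 9.76 points and limma adjusted p of 0.117 or more.

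Of 30 other hnRNPs, poly(C)-binding and polypyrimidine tract-binding proteins, further RNA-binding relatives and import receptors, 29 were tested by the authors. In the authors' deposited table, 8 of the 29 were lower and 1 higher after Fubp1 knockdown, 3 lower and 1 higher after Khsrp knockdown, 10 lower and 3 higher in the double knockdown, and 5 lower and 1 higher after Rbm38 knockdown. The shares of all genes that were lower there are 10.5%, 4.34%, 13.7% and 7.02%, and among the genes of at least 100 RPKM they are 32.8%, 5.53%, 23.9% and 19.5%, in the authors' deposited table. The cold-inducible genes Rbm3 and Cirbp had opposite signs in the double knockdown, -2.19 for Rbm3 (FDR 3.89e-27) and 1.13 for Cirbp (FDR 2.14e-07) on the log2 scale in the authors' deposited table. Ptbp2, the neural polypyrimidine tract-binding protein, had -1.34 (FDR 1.37e-21) and Syncrip, a relative of Hnrnpr, had -1.05 (FDR 5.60e-10) in the authors' deposited table. Ewsr1 had -0.92 (FDR 8.92e-07) and Hnrnpul1 -0.79 (FDR 0.0168) in the authors' deposited table.

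Over the 11 libraries, the genes whose log2 junction-read level was most like the mean of the 6 hnRNP genes with exon entries were Mthfd1, Cpsf3, Polr1b, Hdac2 and Utp6. Their Pearson r lay between 0.954 and 0.965, among 9438 genes outside the hnRNP lists. These values share libraries, scaling and library sets, and are a description.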

How the data were processed

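PolyA RNA of 11 libraries of N2A cells was sequenced. Per the submitters' processing notes and the file headers, the authors quantified genes with Salmon 0.14.1 and edgeR and deposited 1 RPKM value per group, log2 fold changes, p-values and FDR, with no values per library. Per the file headers, the authors also deposited the vast-tools percent spliced in of each event per library, a text score that holds the corrected inclusion and exclusion reads, and the authors' group PSI with their marks of changed events. The aligner and build behind the event coordinates are not given in the sources used here, so the events were matched to GENCODE vM21 (GRCm38) by structure.

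The first site of each alternative splice site group was left out of the splicing tests in all genes. Events with 10 or more reads in every library and a mean PSI of 1 to 99 were fitted together with limma 3.58.1 (R 4.3.3). The fit used log2((inclusion + 0.5)/(exclusion + 0.5)), binomial weights, a prior variance trend over read depth, 1 mean per group, and Benjamini-Hochberg adjustment over all events. The PSI recomputed from the reads matched the deposited one within 0.05 points. Junction reads were summed per gene, scaled by the trimmed mean of M-values and fitted with limma on log2(level + 1) for genes with a mean of 50 or more. The scripts were tested on simulated data. Reads carry no molecular identifiers. The series calls the libraries biological replicates, but the p-values measure only the spread between these samples.

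The members, lists, named events and tests were chosen with earlier results of these data known, and so was the weighted fit, which was preferred for its power on simulated data. The named events are those called in any comparison and, per gene, the exon whose siNT PSI is nearest to 50. Others were chosen after their values were seen. Replicate letters did not pair the libraries: over 10 pairs of groups the correlation of their A minus B differences lay between -0.062 and 0.058. For Fubp1, the column headers carry the letter A for both libraries, and A and B follow the descriptions.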

Additional observations from a re-analysis of the deposited data

Results flagged for a closer look

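The 139 nt exon of Hnrnph1 was less included in the double knockdown than the sum of the Fubp1 and Khsrp effects gives. The departure was -5.47 PSI points, or -1.06 on the log2 odds scale (SE 0.19, limma adjusted p = 0.0253 with Benjamini-Hochberg adjustment over 60127 events), and -5.34 points with the library set term (adjusted p = 0.0204). It is below the 10 points of a call, and all 3 effects share the siNT libraries. Its cause was not tested.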

How the results depend on the processing

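Counts of called hnRNP events or genes moved as follows, and the causes were not tested. For splicing after Fubp1 knockdown (1 called) the count was 0 without weights, without the PSI window, with the library set term and with the replicate block, 3 at 5 points, and 0 to 2 when single libraries were left out. After Khsrp knockdown (0 called) it was 1 at 5 points and 1 with the replicate block, and 0 to 1 with single libraries left out. In the double knockdown (6 called) it was 3 without weights, 10 at 5 points and 5 to 6 with single libraries left out. After Rbm38 knockdown (1 called) it was 0 without weights, with 1 read added, without the PSI window and with the library set term, 2 with the replicate block, and 0 to 2 with single libraries left out. For the departure from the summed effects (0 called) it was 1 at 5 points, 2 with the library set term, 2 with the replicate block, and 0 to 2 with single libraries left out.

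For junction-read levels after Fubp1 knockdown (2 called) the count was 1 with library medians, 4 with the library set term, 4 with the replicate block, 5 with splice site groups, 6 with those and the set term, and 0 to 4 with single libraries left out. After Khsrp knockdown (2 called) it was 1 with library medians, 4 with the replicate block, 4 with splice site groups, 1 with those and the set term, and 0 to 3 with single libraries left out. In the double knockdown (5 called) it was 8 with splice site groups and 3 to 5 with single libraries left out, and after Rbm38 knockdown (3 called) 5 with splice site groups and the set term and 3 to 4 with single libraries left out. In the authors' deposited table the 6 calls after Fubp1 knockdown became 1 at an FDR under 0.01 and 0 with a log2 fold change of at least 0.5, and the 1 call after Khsrp knockdown became 0 and 0.

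No value of a named event or gene changed sign past its threshold. With single libraries left out, 17 of 88 event results and 34 of 132 gene levels lost their call. The letters that define the replicate block do not pair the libraries. There are 2 libraries per knockdown and no expression values per library, and the smallest detectable difference was not measured.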

Other observations

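The 132 nt coding exon of Hnrnpd had nearly the same PSI in every library, 33.26 to 33.33. Its SD within groups was at most 0.01, on 6352 to 23246 reads per library. Whether so constant a value reflects inclusion or the way reads of the event were counted was not tested. It is therefore not read as a share of transcripts. The 497 nt exon of Hnrnpl had a PSI of 90.88, 80.24 and 70.31 in siNT, and 81.49 and 70.07 after Khsrp knockdown. With both genes depleted it was 81.44 and 36.11, and with Rbm38 depleted 70.53 and 95.76. Its Fubp1 libraries, at 59.68 and 59.15, lay close together and under all siNT libraries, by -21.06 points from the siNT mean (limma adjusted p = 0.251). The authors' deposited table of events marks it as changed after Fubp1 knockdown, and limma called it in no comparison. The 71 nt exon of Hnrnpu rested on 11 to 84 reads per library and had a PSI of 79.34, 74.89 and 84.46 in siNT and of 59.92 to 100.0 in the knockdowns. The 5848 nt intron of Hnrnpc, in the 5′ untranslated region, differed by 1.13 points in the double knockdown (limma adjusted p = 0.0402), and with the library set term its adjusted p was 0.0756.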
